A study of Mus musculus with 4 samples.

Results

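The genes described here are 45 mouse orthologs of genes on human chromosome 21 that lie outside the chromosome segment duplicated in Dp(10)2Yey mice, and they were taken by name from a fixed list of the 31055 genes in the deposited tables. Of these, 39 lie on mouse chromosome 16 and 6 on mouse chromosome 17, and each is present in 2 copies in both genotypes. They therefore show what a gene that did not gain a copy does in the comparison in which the duplicated genes have 3 copies against 2. The data were droplet-based single-cell RNA sequencing (3′ UMI counts, each UMI marking 1 captured transcript molecule) of dissociated hippocampus from 4 male mice aged 3 months on a C57BL/6J background, 1 mouse per library. WT comprised 2 wild-type littermates, and Dp(10)2Yey comprised 2 mice carrying 1 chromosome 10 with a duplication of the segment from Prmt2 to Pdxk (build GRCm38, chr10:76207222-78464975) beside 1 normal chromosome 10. The duplication is present in every cell of the animal, so all cell classes carry it. With 2 mice per genotype, p-values rest on 4 animals, and no exact permutation test of a single gene could go below p = 0.33.

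Human chromosome 21 corresponds to 3 stretches of the mouse genome, of which the largest is on mouse chromosome 16 and the smallest on chromosome 17, with the remainder on chromosome 10. The chromosome 16 stretch carries genes long studied in Down syndrome, among them App, whose protein is cut to release amyloid-β, the kinase gene Dyrk1a, the superoxide dismutase gene Sod1, the interferon receptor genes and the paired oligodendrocyte factors Olig1 and Olig2. A gene duplicated on one chromosome is generally transcribed in proportion to its copies, whereas a gene elsewhere changes only through other routes, such as regulation by a duplicated gene or a shift in the mixture of cells sampled.

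The 39 genes on chromosome 16 spanned chr16:77013706-97442936, a stretch of 20.4 Mb with 136 protein-coding genes, and the 6 on chromosome 17 spanned chr17:31386210-32062865, a stretch of 0.677 Mb with 10. App (chr16:84949685-85173766, minus strand), Olig2 (chr16:91225457-91228677, plus strand), Olig1 (chr16:91269772-91271933, plus strand), Kcnj6 (chr16:94748636-94997701, minus strand) and Bace2 (chr16:97356742-97442936, plus strand) lie in the first, and Cbs (chr17:31608894-31637238, minus strand) in the second. In a 3′ assay without resolution of overlapping same-strand genes, the values of Ifnar2 and Il10rb (overlapping Gm21970), Pcp4 (Igsf5), Donson (Atp5o) and Mrps6 (Slc5a3) are uncertain to the extent that reads of the overlapping gene were assigned to either.

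The sequences just upstream of the start sites are shown for 4 of the genes, because their levels are described below and the letters in front of them differ. All 4 had UMIs in each of the 11 cell classes. Each is the 250 bases before a transcript start in RefSeq, from sequence of build GRCm38.p6, written 5′ to 3′ on the gene's own strand. For Sod1 and Hmgn1 that start lay a few bases inside the bounds of the gene in the annotation used for positions, and distances are counted from the RefSeq start. In the first pair the capitals mark TATAAA. The Adamts1 window is chr16:85803114-85803363 (minus strand), with TATAAA beginning 32 bases before the start, and the Sod1 window is chr16:90220512-90220761 (plus strand), with TATAAA beginning 37 bases before it. In the second pair the capitals mark each CG. The Hmgn1 window is chr16:96127726-96127975 (minus strand) and holds 30 of them, and the Pcp4 window is chr16:96467356-96467605 (plus strand) and holds 3.

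Adamts1: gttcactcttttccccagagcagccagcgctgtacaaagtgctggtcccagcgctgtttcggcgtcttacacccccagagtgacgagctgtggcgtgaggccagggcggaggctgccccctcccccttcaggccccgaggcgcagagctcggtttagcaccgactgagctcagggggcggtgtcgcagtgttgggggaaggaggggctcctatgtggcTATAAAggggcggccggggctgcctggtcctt
Sod1: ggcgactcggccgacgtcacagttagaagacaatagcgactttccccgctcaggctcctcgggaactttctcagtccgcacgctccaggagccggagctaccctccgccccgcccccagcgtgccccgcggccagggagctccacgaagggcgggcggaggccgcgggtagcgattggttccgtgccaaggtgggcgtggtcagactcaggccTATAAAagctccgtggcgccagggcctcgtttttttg
Hmgn1: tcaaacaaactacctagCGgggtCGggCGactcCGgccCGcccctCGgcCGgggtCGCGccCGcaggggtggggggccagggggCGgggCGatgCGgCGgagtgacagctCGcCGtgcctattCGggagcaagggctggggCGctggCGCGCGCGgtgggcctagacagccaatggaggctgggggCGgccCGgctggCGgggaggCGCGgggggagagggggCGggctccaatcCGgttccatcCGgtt
Pcp4: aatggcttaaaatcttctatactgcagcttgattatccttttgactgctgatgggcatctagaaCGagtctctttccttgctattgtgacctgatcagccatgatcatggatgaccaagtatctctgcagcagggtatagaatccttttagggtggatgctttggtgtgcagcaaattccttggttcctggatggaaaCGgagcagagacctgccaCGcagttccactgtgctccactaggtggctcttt

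TATAAA, searched on both strands, was found in 13.6% of all 300-base start-site windows in the same table, which run from 250 bases before to 50 after a start. Among the 49 such windows of the genes described here it was in 3 (6.12%), those of Adamts1, Sod1 and Olig2. CG reads the same on both strands and was counted once. Over 32851 upstream windows of 250 bases the median was 6 CG. A window was found for 37 of the 45 genes, and taking each gene's window with most CG their median was 23, from 3 for Pcp4 to 47, with 25 genes above 20 CG against 16.3% of all windows. Taking the highest of several windows favours genes with more than 1 start site. These letters are a description of the windows and were not related to any factor or to the genotype.

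The files held 6464 cell barcodes, from 1039 to 2345 per library, and 3002546 to 9612011 UMIs per library. After removal of barcodes with fewer than 200 genes and of 33 red blood cells, 6248 cells remained, and 8 barcode sequences occurred in 2 libraries. The 45 genes were left out of the genes used to group the cells. Of 14 clusters, 10 carried a name from their markers, and 11 had at least 10 cells in every library and are called classes here. They were microglia-like cells (2003), astrocyte-like cells (892), cells of the oligodendrocyte lineage (970 oligodendrocyte-like and 464 oligodendrocyte precursor-like), endothelial-like cells (303), ependymal-like cells (128), neuron-like cells (426) and immature neuron-like cells (158), and 3 unnamed clusters, led by Tyrobp and Cst3 (572), by Ttr and 2900040C04Rik (126) and by S100a9 and S100a8 (108). The microglia-like cluster was also led by Il1a and Atf3, the endothelial-like cluster also by haemoglobin genes, and the neuron-like cells had a median of 27.8% mitochondrial UMIs. The immature neuron-like cluster took its name from 3 fixed markers among its 10 leading genes, which also held the cell-cycle genes Top2a, Hist1h1b, Ube2c, Pclaf and Prc1. Its 9 dividing-cell markers summed to 1627, 5609, 3912 and 3704 CPM, against at most 679 CPM in any library of the other classes. The cluster led by S100a9 also held Pf4, Mrc1, H2-Aa and Cd74 among its 10 leading genes. Its 10 border macrophage markers summed to 9160, 12297, 4386 and 10278 CPM and its 8 neutrophil markers to 0, 0, 44356 and 12262 CPM (Ngp, Camp and Ltf at 0), so that the name S100a9 describes the Dp(10)2Yey libraries only. Library sizes differed by class, and WT replicate 1 held only 45 neuron-like cells while WT replicate 2 held 15 ependymal-like cells. Values in 4 libraries are given throughout in the order WT replicate 1, WT replicate 2, Dp(10)2Yey replicate 1, Dp(10)2Yey replicate 2.

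The 45 genes gave 95681 UMIs in all, from 25 for Chaf1b to 19090 for App, with a median of 996 per gene. Together they took 0.389% and 0.425% of the UMIs of the WT libraries and 0.391% and 0.404% of those of the Dp(10)2Yey libraries. The genotypes overlapped in this share. Levels are in CPM, the count scaled to the total UMIs of the class in that library, a quantity that compares classes within a gene but, with 3′ capture, not genes with each other.

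The genes were spread over the hippocampal cell classes rather than gathered in 1 of them. The class with the highest mean level over the 4 libraries was microglia-like for 8 genes (Adamts1, Rcan1, Ifngr2, Bach1, Morc3, Pknox1, Rrp1b and Donson) and ependymal-like for another 8 (Bace2, Sod1, Pigp, Gart, Pde9a, Dyrk1a, Cxadr and Setd4). It was endothelial-like for 6 genes (Ifnar1, Ifnar2, Jam2, Tiam1, Usp25 and Sik1), immature neuron-like for 6 (Hmgn1, U2af1, Hlcs, Brwd1, Chaf1b and Cct8; the class with the highest dividing-cell markers), oligodendrocyte precursor-like for 4 (Olig1, Olig2, Gabpa and Usp16) and neuron-like for 3 (Ttc3, Synj1 and Kcnj6). Astrocyte-like cells were highest for 2 genes (Cbs and Son) and oligodendrocyte-like cells for 1 (App). The cluster led by Ttr, which encodes a thyroid hormone carrier of the choroid plexus, was highest for 4 (Pcp4, Mrps6, Cbr1 and Psmg1), and the cluster led by S100a9 for 3 (Il10rb, Itsn1 and Ets2). In that cluster Il10rb was at 252, 282, 78.3 and 229.8 CPM and Itsn1 at 189, 208, 131 and 100.9 CPM, so that neither was highest in the libraries with neutrophil markers. The highest class was another one for 8 of the 45 genes when 1 library was left out (Brwd1, Cxadr, Dyrk1a, Gart, Il10rb, Pknox1, Psmg1 and Rrp1b). Chaf1b and Setd4 rested on 9 UMIs each in their highest class, with none in Dp(10)2Yey replicate 1, and Psmg1 on 16 in the Ttr cluster. Without WT replicate 1 the Psmg1 mean there was 35.2 CPM in place of 61.8 CPM, below ependymal-like cells (45.5 CPM).

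**Figure D1:**
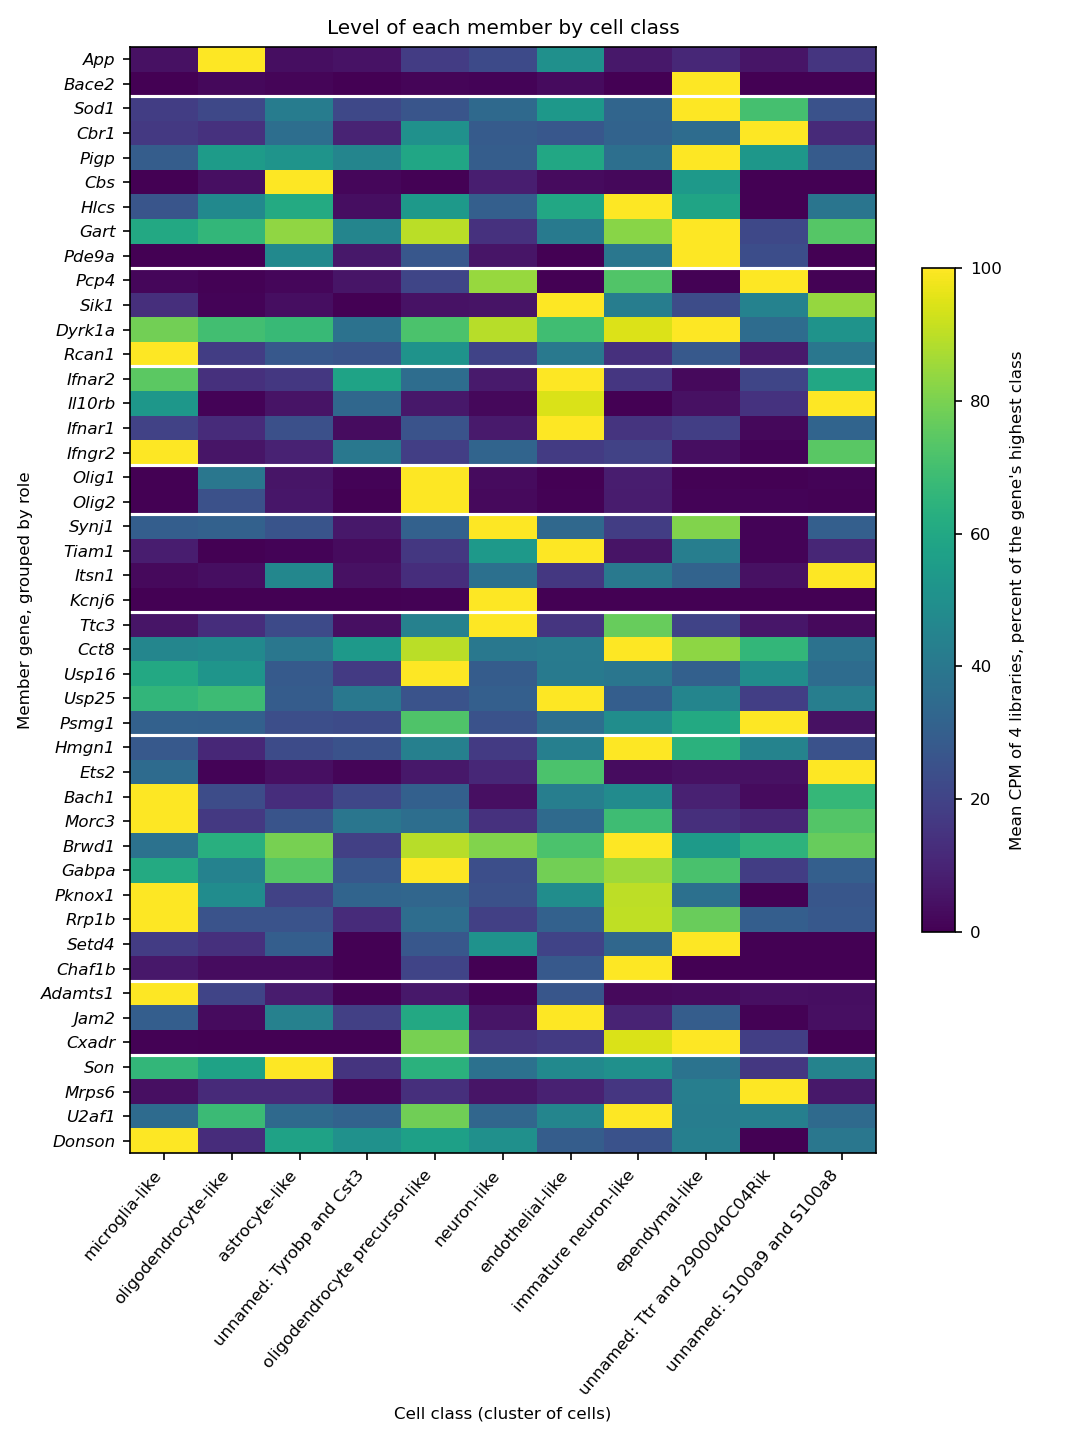
Level of each of the 45 genes (the members) in each of the 11 cell classes, as the mean CPM over 4 libraries in percent of the gene's highest class (colour, brightest at 100), with genes in rows by role and classes in columns. Bace2 and Kcnj6 are bright in a single column, whereas Dyrk1a and Brwd1 are above 50% of their highest level in 9 of 11 classes.

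Most of these preferences were graded. The highest class exceeded the next by at least 5 times for 2 genes, Kcnj6 and Bace2, and by at least 2 times for 10, while for 22 the ratio was under 1.5, and the median ratio was 1.51. The same class was highest in all 4 libraries for 20 genes, and 33 genes had UMIs in every class. Only 10 genes had their next class below 50% of the highest level, 26 exceeded that level in 2 to 4 classes and 9 in 5 or more. Marker lists were also summed outside their own class, where carried-over RNA and RNA made in those cells were not separated. The 17 endothelial marker genes summed to 38218 CPM in endothelial-like cells and to between 264 and 3029 CPM in the other named classes. The 20 microglial markers summed to 58927 CPM in microglia-like cells and to between 345 and 1005 CPM in the other named classes. In the unnamed clusters the microglial list summed to 50365 (Tyrobp), 22301 (S100a9) and 1334 CPM (Ttr), so that the Tyrobp cluster carried it near the microglia-like level. The 20 astrocyte markers summed to 62550 CPM in astrocyte-like cells, 20806 CPM in ependymal-like cells and 8632 CPM in neuron-like cells, and the 20 oligodendrocyte markers to 102660 CPM in oligodendrocyte-like cells, 8787 CPM in the Ttr cluster, 6839 CPM in their precursors and 5251 CPM in neuron-like cells. How much of a gene's low level outside its main class was free RNA was not tested. Since the classes were made from these same cells, the distribution is a description without a test.

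The Dp(10)2Yey to WT comparison over all cells of a library addressed whether genes without an extra copy stayed at the WT level. Their median log2 fold change was 0.013, beside a median of 0.0055 over all 13807 genes tested. The genes of the duplicated segment, measured in the same libraries, had a median of 0.58, beside a value of 0.585 for 3 copies against 2. Of the 45 genes, 44 passed the filter on low counts and Chaf1b, which helps assemble chromatin during DNA replication, did not. By edgeR's quasi-likelihood test with Benjamini-Hochberg adjustment over all genes, 0 of 44 passed an adjusted p of 0.01, the same as the 0% of all genes called. At an unadjusted p under 0.05 edgeR gave 1 of the 44, Tiam1, which was lower, and 0 higher, against 1.55% lower and 1.19% higher among all genes. With libraries thinned to the smallest it gave 1 higher and 1 lower of 42, where 3.09% of all genes were under 0.05. Tiam1 was not among them. DESeq2 also called 0 of 44, where it called 3 of all 13807 genes (0.0217%), and it gave 0 of the 44 at an unadjusted p under 0.05, against 1.21% of all genes. The duplicated segment, too, gave 0 calls after adjustment, yet 23 of its 31 tested genes were higher at an unadjusted p under 0.05, so that the adjusted threshold separates neither set in this design.

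Directions were evenly divided. The fold change was above 0 for 24 genes and below 0 for 20, while 51.2% of all genes were above 0. For 6 genes each Dp(10)2Yey library was above each WT library (Rcan1, Brwd1, Usp25, Cbr1, Cbs and Rrp1b) and for 6 it was below (Ifnar1, Ifnar2, Il10rb, Tiam1, Bach1 and Adamts1). Among all genes this happened upward in 14% and downward in 12.9%, close to the 6 of 44 in each direction. In the duplicated segment 28 of 31 genes lay above and 0 below. Measured against the mean of the WT libraries, the median of the 44 genes was 0.01 in Dp(10)2Yey replicate 1 and 0.00 in replicate 2. The duplicated genes stood at 0.63 and 0.58 in these libraries. For the 44 genes the WT libraries stood at 0.02 and -0.02, values that mirror each other because their mean is the reference.

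**Figure D2:**
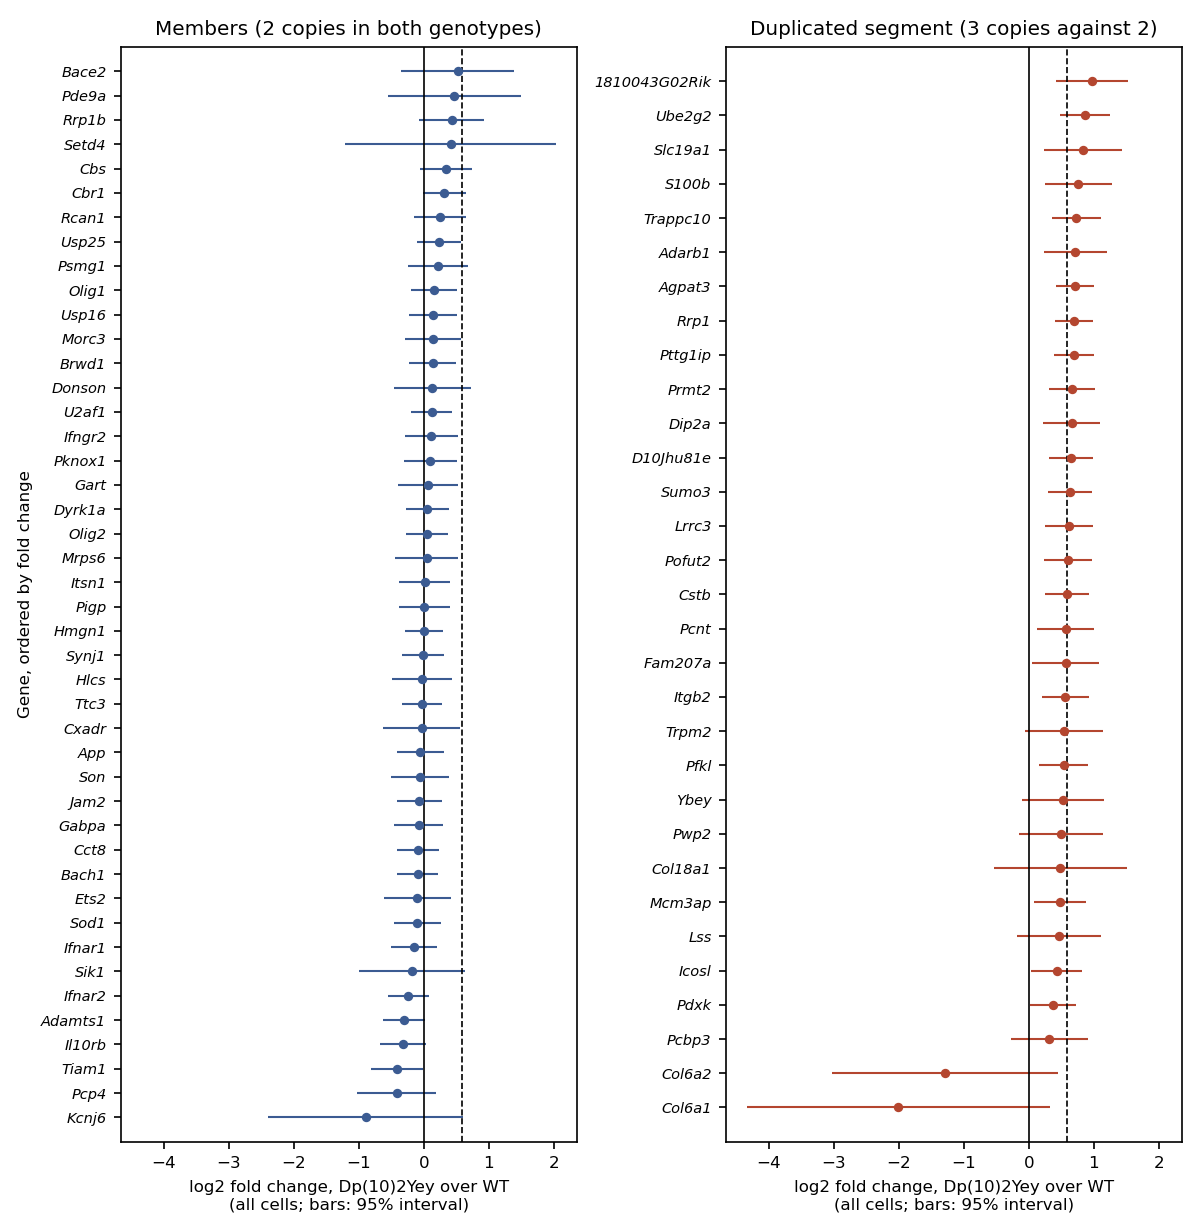
Log2 fold change of Dp(10)2Yey over WT with 95% interval in all cells for the 44 chromosome 16 and 17 genes (members, left) and the 31 duplicated genes tested (right), with a solid line at 0 and a dashed line at log2 of 3 over 2. The 44 genes are centred on 0.01, and all but 1 of their intervals hold 0, while the duplicated genes are centred on 0.58.

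The 95% intervals show how much each gene could say. For 43 of the 44 the interval held 0, and for 32 it held 0 and left out 0.585. For these 32 a rise as large as that of an extra copy lay outside the interval. For 11 the interval held both values, and for Tiam1 it held neither. Falls of the same size were not counted, and intervals such as those of Pcp4 (-1.03 to 0.19) and Il10rb (-0.68 to 0.04) held such a fall. In the duplicated segment 29 of 31 intervals held 0.585, 23 of these leaving out 0, and only those of the collagen genes Col6a1 and Col6a2 held 0 and not 0.585. Precision followed depth. The 35 genes at 20 CPM or more had a median interval width of 0.72 and fold changes of at most 0.42 in size, and the 9 below 20 CPM had a median width of 1.63. In these totals over cells, fewer cells of a type and less RNA per cell cannot be told apart.

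App and Bace2 encode the amyloid precursor protein and a secretase that cleaves it. App was highest in oligodendrocyte-like cells in all 4 libraries, at 2764, 2518, 2581 and 2621 CPM (mean 2621 ± 104, SD, n = 4), next in endothelial-like cells (mean 1317 CPM) and at 584 CPM in neuron-like cells. Bace2 was concentrated in ependymal-like cells at 111, 136, 172 and 168 CPM, against a mean of 4.56 CPM in endothelial-like cells, the next class. Ependymal-like cells held 119 of its 158 UMIs (75.3%, exact 95% interval 67.8% to 81.8%, counting error only), and 5 of the 11 classes held none. The precursor and this secretase thus had their highest levels in different classes. Over all cells App measured 739 and 901 CPM in the WT libraries and 848 and 736 CPM in the Dp(10)2Yey libraries, a log2 fold change of -0.05 ± 0.15 (SE, n = 2 per genotype; 95% interval -0.41 to 0.30). The genotypes overlapped, and the interval left out 0.585. Within oligodendrocyte-like cells, where it was highest, the App fold change was -0.03 ± 0.15. Bace2 measured 5.74, 4.74, 5.30 and 9.17 CPM over all cells, with a fold change of 0.52 ± 0.38 and an interval from -0.34 to 1.39 that held both 0 and 0.585. With 1 library left out its fold change ran from 0.033 to 0.83, and its sign turned with libraries thinned to the smallest. WT replicate 1 held 61 ependymal-like cells against 15, 18 and 34 in the other libraries, and with the class shares held equal across libraries the log2 ratio of the Bace2 genotype means was 0.61, against 0.47 as measured. Of 18 other genes of amyloid precursor processing, 17 were tested, 0 passed the threshold in either direction, and their median was 0.04 with 9 above and 8 below 0.

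Among the redox and metabolic enzymes, Sod1 converts superoxide to hydrogen peroxide and Cbs makes cystathionine from homocysteine. Sod1 was highest in ependymal-like cells at 411, 442, 594 and 492 CPM (mean 485), and next in the Ttr cluster (mean 341 CPM), with its lowest level in microglia-like cells at 87.4 CPM. Cbs was highest in astrocyte-like cells at 161, 167, 164 and 187 CPM (mean 169 ± 11.8, SD, n = 4), against 91.0 CPM in ependymal-like cells. Cbr1, a carbonyl reductase gene, reached 204 CPM in the Ttr cluster, Pigp, of the first step of GPI anchor synthesis, 197 CPM in ependymal-like cells, and Pde9a, a cyclic GMP phosphodiesterase gene, 28.1 CPM in ependymal-like cells. Sod1 over all cells measured 160.0 and 132 CPM in WT and 149 and 123 CPM in Dp(10)2Yey (-0.10 ± 0.16, SE, n = 2 per genotype), with overlapping genotypes. Cbs measured 18.9 and 18.2 CPM in WT against 22.6 and 24.1 CPM in Dp(10)2Yey. This was 0.34 ± 0.17 on the log2 scale, with both Dp(10)2Yey libraries above both WT libraries, and it did not pass (edgeR unadjusted p = 0.084, adjusted p = 1.0). Within astrocyte-like cells the Cbs fold change was 0.07 ± 0.22, with libraries at 161, 170, 167 and 180 CPM after scaling. Cbr1 was likewise higher in both Dp(10)2Yey libraries, at 53.5 and 59.1 CPM against 46.9 and 43.8 CPM (0.32 ± 0.14). All 7 enzymes together had a median of 0.07, 5 above and 2 below 0, and Pde9a, at 3.71, 2.22, 3.67 and 4.09 CPM, had a fold change of 0.47 ± 0.44. Outside these stretches, 18 antioxidant enzyme genes had a median of 0.11, with 14 above and 4 below 0 and 0 past the threshold in either direction.

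Ifnar1 and Ifnar2 encode the subunits of the type I interferon receptor, Ifngr2 a subunit of the interferon-γ receptor and Il10rb a subunit shared by receptors of the interleukin-10 family. Ifnar1 was highest in endothelial-like cells at 155, 166, 185 and 144 CPM (mean 162), 3.11 times the next class, the S100a9 cluster at 52.1 CPM. Ifnar2 was highest there too (mean 219 CPM), with 163 CPM in microglia-like cells and 5.45 CPM in ependymal-like cells. Ifngr2 was highest in microglia-like cells (141 CPM), and Il10rb was near equal in the S100a9 cluster (211 CPM) and endothelial-like cells (199 CPM). Ifnar1 in microglia-like cells (31.9 CPM) was below its level in oligodendrocyte precursor-like (41.3 CPM) and astrocyte-like cells (39.9 CPM). Over all cells, Ifnar2 measured 108 and 99.3 CPM in WT and 84.9 and 90.6 CPM in Dp(10)2Yey, and Il10rb 72.6 and 60.7 CPM against 49.4 and 56.5 CPM. For both, the Dp(10)2Yey libraries were below the WT libraries, with fold changes of -0.24 ± 0.13 and -0.32 ± 0.16, neither of which passed (edgeR unadjusted p = 0.117 and 0.075). Ifnar1 was lower by less (-0.15 ± 0.15), again without overlap, and Ifngr2 stood at 0.12 ± 0.18 with overlapping genotypes. In endothelial-like cells alone the fold change of Ifnar1 was -0.00 ± 0.25 and that of Ifnar2 was 0.21 ± 0.23, and in microglia-like cells Ifnar2 was at -0.18 ± 0.14. Of 17 other genes of interferon and interleukin-10 receptor signalling, 14 were tested, 6 above and 8 below 0, with a median of -0.05 and 0 past the threshold in either direction.

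The basic helix-loop-helix factors Olig1 and Olig2, which specify the oligodendrocyte lineage, shared their highest class. Olig1 was highest in oligodendrocyte precursor-like cells in every library, at 2003, 2014, 2040 and 2230 CPM (mean 2072 ± 107, SD, n = 4), followed by oligodendrocyte-like cells at 824 CPM and immature neuron-like cells at 163 CPM. Olig2 was highest in the same class at 773, 649, 605 and 785 CPM, 4.05 times its level in oligodendrocyte-like cells. Over all cells Olig1 measured 357 and 375 CPM in WT and 460.2 and 357 CPM in Dp(10)2Yey, so the genotypes overlapped (0.16 ± 0.16, SE, n = 2 per genotype; interval -0.20 to 0.51). Olig2 was at 0.05 ± 0.14, and within the precursor-like class the fold changes were 0.09 ± 0.15 for Olig1 and -0.02 ± 0.17 for Olig2. Of 15 other transcription factors of this lineage, 12 were above and 3 below 0, with a median of 0.08 and 0 past the threshold in either direction.

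The kinase and calcium signalling genes differed in breadth. Dyrk1a, a dual-specificity kinase gene, ran from 16.9 to 47.9 CPM over the 11 classes, a 2.83-fold range, and was above 50% of its highest level in 9 of them. Rcan1, an inhibitor of calcineurin, was highest in microglia-like cells (42.3 CPM), and the salt-inducible kinase gene Sik1 in endothelial-like cells (49.7 CPM). Pcp4, which encodes a calmodulin-binding peptide, reached 1133, 882, 909 and 1000.3 CPM in the Ttr cluster and 1091, 1027, 304 and 896 CPM in neuron-like cells, with 3.56 CPM in endothelial-like cells. Dyrk1a was the steadiest of these between genotypes, at 35.8 and 34.6 CPM in WT and 35.7 and 37.1 CPM in Dp(10)2Yey (0.05 ± 0.14, interval -0.28 to 0.38, which left out 0.585). Pcp4 measured 126 and 172 CPM against 80.2 and 143 CPM. Dp(10)2Yey replicate 1 was the low library, the genotypes overlapped, and the fold change was -0.42 ± 0.26 (interval -1.03 to 0.19). With same-numbered libraries as blocks it was -0.45 ± 0.15 (edgeR unadjusted p = 0.021), which did not pass after adjustment. Pairing by replicate number was not established. Of 16 calcineurin and NFAT genes, 15 were tested, with a median of -0.03, 7 above and 8 below 0 and 0 past the threshold in either direction.

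**Figure D3:**
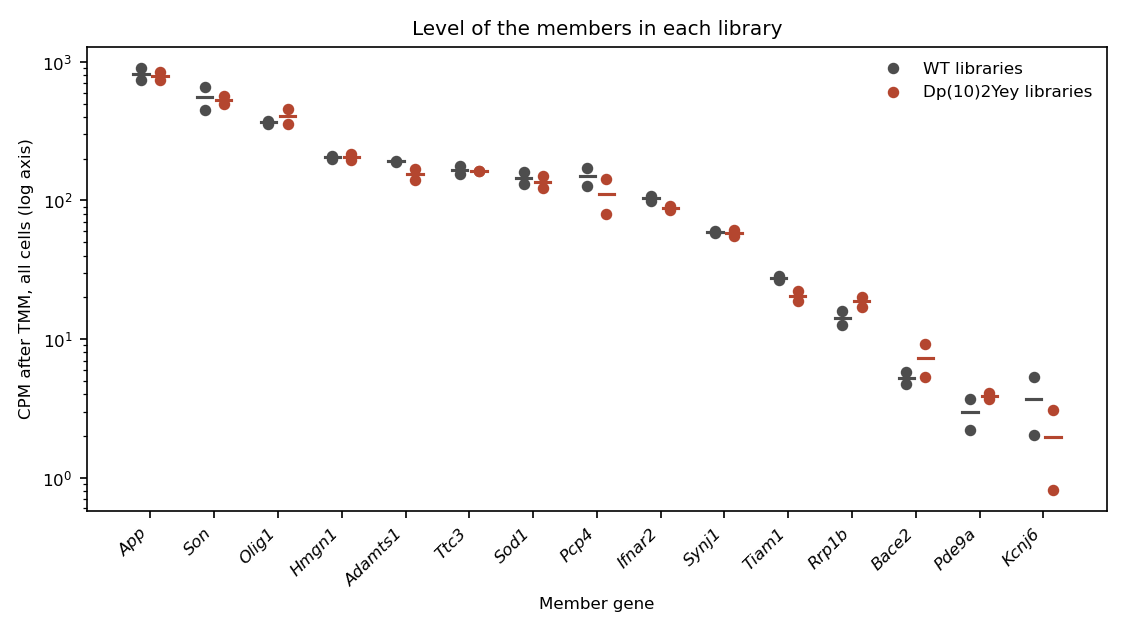
Level over all cells (CPM, log axis) in each of the 4 libraries for the genes with per-library values, with 1 point per library, WT in grey and Dp(10)2Yey in red, and a short bar at the mean of each genotype. The genotypes overlap for App, Sod1, Olig1 and Pcp4, and do not for Tiam1, Adamts1 and Ifnar2.

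Synj1, Itsn1, Tiam1 and Kcnj6 act in synaptic vesicle recycling, endocytic scaffolding, Rac activation and inward potassium current. Synj1 was highest in neuron-like cells (171 CPM), with 139 CPM in ependymal-like cells, and Itsn1 in the S100a9 cluster (157 CPM), with 73.0 CPM in astrocyte-like cells. Kcnj6 had the narrowest distribution of the 45 genes, at 68.9, 65.3, 13.2 and 73.3 CPM in neuron-like cells, which held 73 of its 74 UMIs (98.6%, exact 95% interval 92.7% to 99.97%, counting error only). In 9 classes it had no UMI, which at 3 counts per class allows up to 0.352 CPM in the deepest and 9.91 CPM in the shallowest. Kcnj6 was low in the neuron-like cells of Dp(10)2Yey replicate 1, the library in which Pcp4 and Ttc3 were also low in that class and in which the 20 neuronal markers summed to 9053 CPM against 14524 to 19115 CPM in the others. Its fold change within the class was -0.52 ± 0.53 and over all cells -0.90 ± 0.65 (2.03, 5.33, 0.816 and 3.09 CPM, overlapping genotypes), with an interval of -2.39 to 0.60 that held both 0 and 0.585. With 1 library left out it ran over all cells from -2.25 (without Dp(10)2Yey replicate 2) to 0.063 (without WT replicate 2), and within the class from -1.79 (without Dp(10)2Yey replicate 2) to -0.023 (without Dp(10)2Yey replicate 1). Synj1 was at 60.4, 58.0, 61.6 and 55.7 CPM over all cells (-0.02 ± 0.14).

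Tiam1 was the single gene whose interval left out 0. It measured 28.7 and 26.5 CPM in WT and 18.8 and 22.2 CPM in Dp(10)2Yey over all cells. Both Dp(10)2Yey libraries were below both WT libraries, with a log2 fold change of -0.41 ± 0.17 (interval -0.81 to -0.01), and it did not pass after adjustment (edgeR unadjusted p = 0.045, adjusted p = 1.0). By DESeq2 the unadjusted p was 0.16, and edgeR gave 0.145 without WT replicate 1, 0.084 without WT replicate 2, 0.172 without Dp(10)2Yey replicate 1, 0.035 without Dp(10)2Yey replicate 2 and 0.089 with libraries thinned to the smallest. Tiam1 was highest in endothelial-like cells at 186, 134, 213 and 127 CPM, next in neuron-like cells (89.0 CPM) and ependymal-like cells (70.4 CPM). Within endothelial-like cells it was at 0.05 ± 0.32, with the highest and the lowest library both Dp(10)2Yey, and ran from -0.32 to 0.43 when 1 library was left out. Within neuron-like cells it was at 147, 90.5, 21.7 and 77.5 CPM (-0.99 ± 0.50, edgeR unadjusted p = 0.070), the lowest value again in Dp(10)2Yey replicate 1. When Dp(10)2Yey replicate 2 was left out, Tiam1 (-2.23, adjusted p = 0.0096) and Pcp4 (-1.29, adjusted p = 0.0030) passed in neuron-like cells by edgeR, with the remaining Dp(10)2Yey library assumed to vary like the WT libraries. In that setting 2 of 19 of the genes tested passed, beside 157 of 5531 among all genes (2.84%). Astrocyte markers summed to 12127 and 9677 CPM in the neuron-like cells of the Dp(10)2Yey libraries and to 5706 and 7017 CPM in those of WT, with none of the 20 at 0. The 20 oligodendrocyte markers summed there to 9487 CPM in Dp(10)2Yey replicate 1, the library on which both calls rest, against 3950, 5127 and 2440 CPM in the others, again with none at 0. The part of these lists in the Tiam1 and Pcp4 values was not tested. The other 23 endocytosis and Rac signalling genes had a median of 0.03, 17 above and 6 below 0, with 0 past the threshold in either direction.

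Genes of ubiquitin handling, protein folding and proteasome assembly included Ttc3, a ubiquitin ligase gene, Usp16 and Usp25, deubiquitinase genes, Cct8, a chaperonin subunit gene, and Psmg1, a proteasome assembly chaperone gene. Ttc3 was highest in neuron-like cells at 746, 798, 490 and 917 CPM (mean 738), then in immature neuron-like cells at 566 CPM, with its lowest level of 18.6 CPM in an unnamed cluster. Cct8 varied little, from 71.1 to 189 CPM over the classes. Over all cells Ttc3 was at 155, 176, 163 and 164 CPM (-0.03 ± 0.13, interval -0.33 to 0.28). Usp25 was higher in both Dp(10)2Yey libraries (40.9 and 43.5 against 46.3 and 53.0 CPM, 0.24 ± 0.15) and did not pass. The group's median was 0.15, with 3 above and 2 below 0.

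Transcription and chromatin genes were the largest group, with 10 members, 9 of them tested. Hmgn1, a nucleosome-binding protein gene whose CG-rich upstream window is printed above, was found in every class and highest in immature neuron-like cells at 666, 816, 610 and 703 CPM (mean 699), with 447 CPM in ependymal-like cells and a median of 194 CPM over classes. Brwd1, a bromodomain gene, ran from 8.46 to 44.7 CPM. Bach1, a haem-responsive repressor gene, and Ets2 were highest in microglia-like cells (134 CPM) and the S100a9 cluster (164 CPM). Hmgn1 was at 211, 198, 195 and 214 CPM over all cells (0.01 ± 0.13, interval -0.29 to 0.30). Rrp1b, which acts in ribosome biogenesis and gene regulation, was at 15.9 and 12.6 CPM in WT and 17.1 and 20.2 CPM in Dp(10)2Yey. Its libraries did not overlap, and its fold change of 0.43 ± 0.22 did not pass (edgeR unadjusted p = 0.082). The group's median was 0.10, with 6 above and 3 below 0.

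Adamts1, Jam2 and Cxadr encode a secreted metalloproteinase and a pair of junctional adhesion molecules. Adamts1 was highest in microglia-like cells at 425, 461, 399 and 303 CPM, 3.74 times its level in endothelial-like cells (106 CPM). Jam2 was highest in endothelial-like cells (254 CPM) and next in oligodendrocyte precursor-like cells (153 CPM). Adamts1 over all cells was at 191 and 191 CPM in WT and 169 and 141 CPM in Dp(10)2Yey, without overlap (-0.30 ± 0.14, interval -0.62 to 0.02, edgeR unadjusted p = 0.060). Jam2 was at -0.07 ± 0.15 and Cxadr at -0.03 ± 0.26. Of the remaining genes, of RNA processing, replication and the mitochondrial ribosome, Son, a splicing cofactor gene, was highest in astrocyte-like cells at 672, 1206, 664 and 1057 CPM. Both replicates numbered 1 were the lower ones in each genotype. Over all cells Son was at 446, 660.4, 497 and 566 CPM (-0.06 ± 0.19, interval -0.51 to 0.38). Mrps6, a mitochondrial ribosomal protein gene, reached 508 CPM in the Ttr cluster against 217 CPM in ependymal-like cells, with a fold change of 0.05 ± 0.21.

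By chromosome, the 38 tested genes of chromosome 16 had a median of -0.00, with 19 above and 19 below 0, and the 6 of chromosome 17 a median of 0.23, with 5 above and 1 below. The difference between these medians was not tested. Other protein-coding genes lying between the listed ones gave a median of 0.02 over 39 tested, with 1 higher and 1 lower at an unadjusted p under 0.05.

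The same comparison was made within each class. The median log2 fold change of the tested genes was 0.06 in microglia-like cells (35 genes), 0.01 in oligodendrocyte-like cells (33), 0.02 in their precursors (33), 0.06 in astrocyte-like cells (29) and -0.00 in endothelial-like cells (27). It was -0.09 in neuron-like (19), 0.05 in immature neuron-like (14) and 0.18 in ependymal-like cells (16). In the clusters led by Tyrobp, Ttr and S100a9 it was 0.04 (9 genes), -0.19 (5) and -0.20 (3). The S100a9 cluster held different cells in the genotypes, by the neutrophil marker sums given above, so its values do not compare like cells. Markers of other types also differed within named classes. In astrocyte-like cells all 14 tested microglial markers were higher in Dp(10)2Yey (median 1.01, sums 982 and 270 against 869 and 1317 CPM). By edgeR 10 of them were at an unadjusted p under 0.05, and Cx3cr1 passed after adjustment. In oligodendrocyte-like cells all 13 tested astrocyte markers were higher, 10 of them at an unadjusted p under 0.05 (median 1.06). Their part in the class values was not tested. The duplicated genes had a higher median in each of the 11 classes, from 0.40 in endothelial-like cells to 1.07 in neuron-like cells and 1.39 over 2 genes in the S100a9 cluster. In microglia-like cells, the largest class, the duplicated genes stood at 0.56 and 24 of their 25 intervals held 0.585, 16 of these leaving out 0. Among the 35 genes described here, 31 intervals held 0, of which 19 left out 0.585 and 12 held it too. Those of Ttc3 and Brwd1 held 0.585 and left out 0, and 2 (Adamts1 and Sod1, both lower) held neither.

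**Figure D4:**
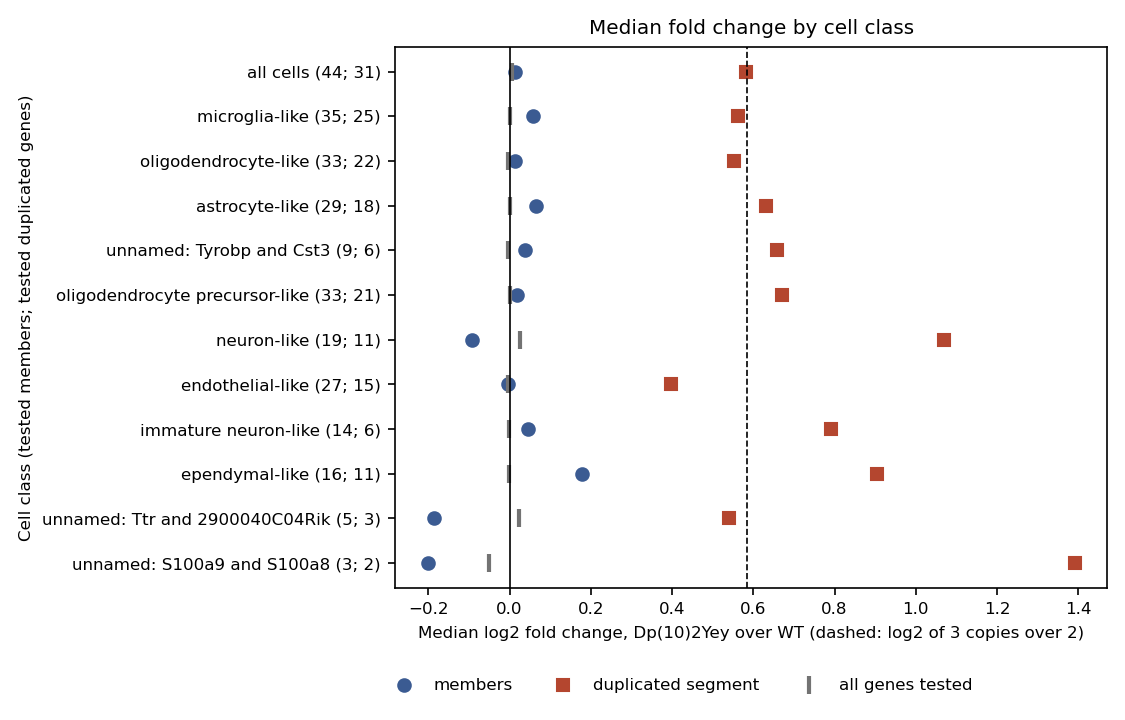
Median log2 fold change of Dp(10)2Yey over WT in each of the 11 classes and over all cells (top row) for the chromosome 16 and 17 genes (circles), the duplicated genes (squares) and all genes tested (ticks). Over the classes the chromosome 16 and 17 genes stay between -0.20 and 0.18 and the duplicated genes between 0.40 and 1.39.

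No gene of the 45 passed an adjusted p of 0.01 by edgeR in any of the 11 classes, and DESeq2 called 0 in each class as well. DESeq2 called 0.0305% of all genes in astrocyte-like cells, 0.0346% in immature neuron-like cells, 0.707% in the S100a9 cluster and 0% in the others. By edgeR the share called among all genes was 0.061% in astrocyte-like cells, 0.99% in the S100a9 cluster and 0% in the others. At an unadjusted p under 0.05 there were 4 in microglia-like cells, where 2.99% of all genes reached it, 1 in immature neuron-like cells, where 2.87% did, and 0 in each of the other 9 classes. In those the share among all genes was 2.64% in oligodendrocyte-like, 4.18% in astrocyte-like, 3.57% in oligodendrocyte precursor-like, 3.4% in neuron-like, 3.31% in endothelial-like and 3.79% in ependymal-like cells, and 3.67%, 3.64% and 4.38% in the clusters led by Tyrobp, Ttr and S100a9. The 4 in microglia-like cells were Ttc3 and Brwd1, which were higher, and Adamts1 and Sod1, which were lower, and none passed after adjustment. Adamts1 was at 422 and 471 CPM in WT and 397 and 300.1 CPM in Dp(10)2Yey (-0.37 ± 0.15, edgeR unadjusted p = 0.025, adjusted p = 1.0), without overlap. These cells held 3242 Adamts1 UMIs, which are part of the counts over all cells, so the same direction there is not separate evidence. In endothelial-like cells, too, Adamts1 was lower in both Dp(10)2Yey libraries (131 and 127 against 78.4 and 88.4 CPM, -0.60 ± 0.28, edgeR unadjusted p = 0.055). In that class 12 of 13 tested microglial markers were lower in Dp(10)2Yey (median -1.28, sums 832 and 1830 against 190 and 824 CPM), and all 11 tested pericyte and smooth muscle markers were higher (median 1.30, sums 3227 and 2468 against 7056 and 4785 CPM), with none of either list at 0, and their part in the Adamts1 value was not tested. Sod1 in microglia-like cells was at 102, 96.1, 87.6 and 64.1 CPM (-0.41 ± 0.17), Ttc3 at 36.4, 36.1, 53.8 and 46.0 CPM (0.44 ± 0.19) and Brwd1 at 14.2, 12.02, 18.1 and 22.7 CPM (0.70 ± 0.29). Dp(10)2Yey replicate 2 was the lowest library for Adamts1 and Sod1, and without it both stood at -0.17 (edgeR unadjusted p = 0.305 and 0.391). Without WT replicate 2 none of the 4 was under 0.05 by edgeR, at an unadjusted p of 0.20 for Adamts1, 0.079 for Sod1, 0.141 for Ttc3 and 0.194 for Brwd1. Sod1 (0.101) and Ttc3 (0.086) were also above 0.05 without WT replicate 1, Ttc3 (0.081) without Dp(10)2Yey replicate 1 and Brwd1 without Dp(10)2Yey replicate 2 (0.187) and with thinning to the smallest library (0.182). DESeq2 gave none of the 4 under 0.05 (unadjusted p of 0.056 for Adamts1, 0.116 for Sod1, 0.141 for Ttc3 and 0.150 for Brwd1), where 0.484% of all genes were. In the same cells 8 of 20 neuron markers were tested and all 8 were higher, with a median of 0.43 and summed levels of 86.7 and 91.1 CPM in WT and 110 and 124 CPM in Dp(10)2Yey. The red blood cell markers, 4 of 7 tested, were all higher (median 1.84), 9 of 12 tested astrocyte markers were higher (median 0.39), and of 20 immediate early and dissociation genes 4 were lower at an unadjusted p under 0.05. Of 20 oligodendrocyte markers 11 were tested and 7 were lower, 3 of them at an unadjusted p under 0.05, with a median of -0.17 and sums of 914 and 923 CPM in WT and 894 and 768 CPM in Dp(10)2Yey. The part of these lists in the 4 values was not tested.

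Olig1 in immature neuron-like cells was at 172 and 262 CPM in WT and 98.3 and 117 CPM in Dp(10)2Yey. The genotypes did not overlap, and the fold change was -1.03 ± 0.33 (interval -1.77 to -0.29, edgeR unadjusted p = 0.011, adjusted p = 1.0). In the same cells the 13 oligodendrocyte precursor markers summed to 1356 and 2188 CPM in WT and 1353 and 887 CPM in Dp(10)2Yey, with none at 0. Of the 8 tested, 7 were lower, 5 of them at an unadjusted p under 0.05 by edgeR, with a median of -1.10. The 20 oligodendrocyte markers summed to 249, 423, 509 and 722 CPM, with 1 at 0. The part of such carried-over or mixed cells in this value was not tested. With called doublets removed the fold change was -0.66 (edgeR unadjusted p = 0.070), and without WT replicate 2, the highest library, it was -0.63 (edgeR unadjusted p = 0.217). It was -1.19 without Dp(10)2Yey replicate 2 (edgeR unadjusted p = 0.087) and -0.80 with libraries thinned to the smallest (edgeR unadjusted p = 0.074), and by DESeq2 the unadjusted p was 0.082.

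Marker genes of whole cell types moved between genotypes over all cells, and several of the 12 non-overlapping genes are expressed in those types. Of the 17 endothelial markers 16 were lower in Dp(10)2Yey, 13 of them at an unadjusted p under 0.05, with summed levels of 3449 and 2705 CPM in WT and 1891 and 2360 CPM in Dp(10)2Yey and none of the 17 at 0. Endothelial-like cells made up 5.91% and 5.53% of WT cells and 4.00% and 4.36% of Dp(10)2Yey cells. All 12 pericyte and smooth muscle markers were higher (median 0.26, sums 355 and 231 against 344 and 323 CPM), 0 of them at an unadjusted p under 0.05. The 6 tested Cajal-Retzius neuron markers were all lower (median -0.56), as were 6 of 7 red blood cell markers (median -0.77). In each of these 2 lists 1 was at an unadjusted p under 0.05 by edgeR. All 20 astrocyte markers were higher in Dp(10)2Yey, with sums of 6795 and 6527 CPM against 8703 and 9118 CPM and none at 0. Of 8 neutrophil markers 5 were tested and all 5 were higher, 4 of them at an unadjusted p under 0.05 by edgeR (median 2.89, sums 155 and 43.6 against 390.4 and 306 CPM, with Ngp, Camp and Ltf at 0). Of 12 T cell and NK cell markers 8 were tested and 7 were higher, each of these at an unadjusted p under 0.05 (median 2.39, sums 46.7 and 7.26 against 70.9 and 88.4 CPM, with Gzmb at 0). When each class was given the same share of UMIs in all libraries, the log2 ratio of the genotype means went from -0.43 to -0.15 for Tiam1, from -0.15 to -0.01 for Ifnar1, from -0.33 to -0.21 for Il10rb and from 0.33 to 0.10 for Cbs. These were the 4 of the 12 non-overlapping genes that moved by 0.1 or more. The other 8 moved by less, among them Adamts1 (-0.30 to -0.29), Cbr1 (0.31 to 0.30), Rrp1b (0.39 to 0.41), Rcan1 (0.26 to 0.25), Bach1 (-0.094 to -0.094) and Usp25 (0.24 to 0.29). The sign turned for 6 of the 44 genes (App, Olig2, Ets2, Jam2, Synj1 and Itsn1). The part of the cell mixture in the fold changes was not tested. The median of the 44 genes by this calculation was 0.01, that of the duplicated genes 0.59 and that of all genes 0.00.

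A difference in the genotype effect between classes was examined in 1 model over the 11 classes, chosen after seeing the data. At an adjusted p of 0.05 edgeR called 0 of the 41 genes tested, and 82 of all 10159 (0.807%). Adamts1 alone was under an unadjusted 0.05, as were 3.87% of the 10159 genes tested, with an edgeR adjusted p = 0.739. The library entered that model as a block.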

How the data were processed

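Hippocampal cells of 2 WT and 2 Dp(10)2Yey mice were sequenced by a 10x Genomics 3′ protocol on 2 preparation days, 1 mouse of each genotype per day per the study's methods. The authors deposited raw UMI counts per gene and barcode, made with Cell Ranger 3.0.2 on mm10. Counts per library were 3002546 to 9612011, and precision is limited by the 2 mice per genotype, with intervals of shares covering counting error only. Barcodes under 200 genes were dropped, as was any gene found in 3 cells or fewer, which left 17535 genes. Clusters came from Seurat 5.3.0 in R 4.3.3 (canonical correlation, 2000 variable genes per library without the 45 genes, 50 dimensions, resolution 0.2), after a first pass at resolution 0.5, with all variable genes, removed clusters led by Hba-a1. That change to the first pass was chosen after seeing the data. Doublets (54, 0.86% of cells) were called by Scrublet in scanpy 1.11.5 and kept, except in an alternative. A cluster was named from at least 3 fixed markers among its 10 leading genes. UMIs were summed per library, over all cells and per class, and tested two-sided with edgeR 4.0.16 (TMM, filterByExpr, quasi-likelihood), Benjamini-Hochberg over all genes tested, at an adjusted p of 0.01. CPM by class are of raw totals, and CPM compared between genotypes are after TMM. Alternatives used DESeq2 1.42.0 (size factors), other filters and clusterings, thinning, and a replicate block. The edgeR fit over all cells was tested on simulated counts, and the fits within classes were not. It called 1 of 96 genes simulated with a 1.5-fold change (1.04%), 78 of 98 with a 4-fold change and 4 of 13581 unchanged ones. The genes, their groups and the lists were chosen with earlier results of these data known. Per-library values were given for genes past a threshold in any test, the 5 of largest fold change, those whose interval left out 0 and the highest of each group; further genes were chosen after their values were seen.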

Additional observations from a re-analysis of the deposited data

How the results depend on the processing

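Over all cells the median of the 44 genes ran from -0.023 to 0.068 and that of the duplicated genes from 0.57 to 0.67 when 1 library was left out, and 0 of the 44 were called under each alternative there. With 1 library left out, 12 to 17 of 44 genes lay above in all Dp(10)2Yey libraries and 13 to 14 below, against 31.1% to 33.6% of all genes above and 29.4% to 32.9% below, and with libraries thinned to the smallest 10 of 42 lay below, against 14.3% of all genes. Class medians with 1 library left out ran from -0.074 to 0.064 in microglia-like, 0.012 to 0.078 in oligodendrocyte-like, -0.035 to 0.11 in astrocyte-like, -0.26 to 0.22 in the Tyrobp cluster, -0.093 to 0.14 in precursor-like, -0.17 to 0.024 in neuron-like (0 to 2 genes called), -0.065 to 0.099 in endothelial-like, -0.085 to 0.21 in immature neuron-like, 0.040 to 0.25 in ependymal-like, -0.16 to 0.40 in Ttr and -0.79 to 0.29 in S100a9 cells. Class medians moved to -0.22 (astrocyte-like, 17 genes tested), -0.49 (neuron-like, 8), -0.099 (immature neuron-like, 9) and -0.063 (Ttr, 4) with thinning, to 0.26 (Tyrobp, 39) and 0.25 (immature neuron-like, 43) without a low-count filter, to -0.21 (neuron-like) without cells over 20% mitochondrial UMIs and to -0.56 (S100a9) without integration. Signs turned for Bace2 (-0.048) and Hmgn1 (-0.088) with thinning, for Hmgn1 without doublets (-0.0062) and without high-mitochondrial cells (-0.0165), for Synj1 without those cells (0.0015) and, with class shares held equal, for App (0.0044), Synj1 (0.053), Olig2 (-0.029), Jam2 (0.0087), Ets2 (0.00094) and Itsn1 (-0.12). Leaving out 1 library gave Kcnj6 -2.25 to 0.063, App -0.18 to 0.10, Sod1 -0.24 to 0.045, Olig1 -0.039 to 0.32, Synj1 -0.086 to 0.051, Ttc3 -0.11 to 0.075, Hmgn1 -0.071 to 0.071 and Son -0.31 to 0.25, all spanning 0. Causes were not tested. Without turning, Tiam1 ran from -0.56 to -0.31, Adamts1 from -0.43 to -0.19, Ifnar2 from -0.30 to -0.18, Pcp4 from -0.91 to -0.071, Bace2 from 0.033 to 0.83, Pde9a from 0.073 to 0.81 and Rrp1b from 0.25 to 0.58, and in neuron-like cells Tiam1 from -2.23 to -0.45, Pcp4 from -1.29 to -0.41 and Kcnj6 from -1.79 to -0.023. The labels do not say that replicate numbers mark a shared day, and with 2 pairs the deviations of same-numbered libraries correlated at -0.0018 over all cells and between -0.23 and 0.29 within classes, so pairing was not established. With the replicate block the all-cell median was 0.022 and 0 genes were called. At an unadjusted p under 0.05 by edgeR the block gave Pcp4 in place of Tiam1 over all cells (2.76% of all genes), kept the same 4 genes in microglia-like cells (5.77%) and Olig1 in immature neuron-like cells (2.56%), and added Usp25 in oligodendrocyte-like cells (6.19%), Dyrk1a and Hmgn1 in their precursors (5.63%) and Tiam1 in neuron-like cells (3.92%). Crossed pairs, added after seeing the data, gave 0 calls. At an unadjusted p under 0.05 by edgeR they gave 1 gene over all cells (2.83% of all genes) and 3 in microglia-like cells (2.62%). They gave 1 each in neuron-like (6.31%), immature neuron-like (2.7%) and ependymal-like cells (3.4%). In the 9 classes with 0 genes under 0.05, alternatives that kept all 4 libraries gave 0 in astrocyte-like and Ttr cells. Without a low-count filter there were 2 in precursor-like cells and 2 in the Tyrobp cluster, where 3.61% and 2.28% of all genes were under 0.05. Neuron-like cells then gave 1 higher and 1 lower (2.93%), and endothelial-like, ependymal-like and S100a9 cells 1 each (3.73%, 3.26% and 2.02%). Oligodendrocyte-like cells gave 1 with the replicate block (6.19%). Precursor-like cells gave 1 lower with thinning (3.62%) and 1 higher without doublets (3.36%). Without high-mitochondrial cells, neuron-like and endothelial-like cells gave 1 lower each (4.17% and 3.2%). Ependymal-like cells gave 1 higher with thinning (3.74%), which was not Ttc3. Outside these 9 classes, thinned microglia-like cells gave 2 higher and 3 lower of 33 genes (3.56%). Fits without 1 library leave 1 mouse in a genotype and are left out of these counts. In ependymal-like cells Ttc3 was the gene without a low-count filter and without high-mitochondrial cells (0.89, against 0.67), where 3.26% and 3.7% of all genes were under 0.05. Its fold change there was 1.26 without WT replicate 2.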
